A study of Mus musculus with 2 samples.

Results

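Transcripts of 10 neutrophil genes were compared by the stage of maturation at which they are made: the primary granule genes Mpo, Elane, Prtn3 and Ctsg, and the later genes Ltf, Camp, Ngp, S100a8, S100a9 and Mmp8. The genes were taken by name from the non-control spots of the array, where they had 11 of the 56604 probes read on both arrays and made up 10 of the 26533 gene names measured on both. The Noise3h sample was cochlear RNA of mice dissected 3 hours after a 2-hour exposure to intense noise. The animals were females of the inbred C57BL/6 strain, 7 weeks of age. The Baseline sample was cochlear RNA of mice of the same age, sex and strain that had no noise exposure. Each group had 1 array, and the labels used here give neither how many mice were pooled nor the clock hour of dissection. There is therefore no error between animals and no test: every difference below lies between 2 arrays, and a size of 2-fold served as the threshold.

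Neutrophils mature in bone marrow and fill their granules in waves. The serine proteases and the peroxidase of the primary (azurophil) granules are transcribed in promyelocytes, and these transcripts are largely gone in the mature cell. Lactoferrin, cathelicidin and other contents of the secondary granules follow in myelocytes and metamyelocytes, and the calcium-binding proteins S100a8 and S100a9, which lie in the cytosol, are transcribed in late precursors and in blood neutrophils. The balance of early to late transcripts can thus follow the stage of the neutrophils in a tissue sample. In a cochlear preparation it reads whatever marrow, blood or tissue neutrophils were dissected with it, and the part of other cells in it was not tested. In such a bulk sample, more cells of a type and more RNA per cell cannot be told apart.

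Of the 10 genes, none was 2-fold different after noise, and the early genes stood above most of the late ones. The 4 primary granule genes had log2 ratios (Noise3h minus Baseline, each array scaled to the 75th percentile of its probes) of 0.30 to 0.48, with a median of 0.42, which is 1.34-fold. The 6 later genes had log2 ratios of -0.15 to 0.35, with a median of 0.03, which is 1.02-fold. A 2-fold difference was seen for 1.86% of all measured genes (0.611% upward and 1.25% downward after noise), so a count of 0 among 10 genes does not set them apart.

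The probes that read these transcripts are 60 bases long. These 4 are shown as examples from the contrast between early and late genes. Of the 2 Mpo probes, the one shown is the dimmer, with the higher log2 ratio (0.49 against 0.27). In the S100a8 probe the capitals mark 36 bases whose translation matches the general pattern of an EF-hand calcium-binding loop. The other probes have no such match.
Mpo, second probe (chr11:87615121-87615180, mm9, plus strand): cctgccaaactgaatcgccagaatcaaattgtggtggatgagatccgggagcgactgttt
Prtn3 (chr10:79343869-79344685, mm9, plus strand): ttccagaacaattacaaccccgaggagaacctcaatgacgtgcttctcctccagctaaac
Ltf (chr9:110942873-110942932, mm9, plus strand): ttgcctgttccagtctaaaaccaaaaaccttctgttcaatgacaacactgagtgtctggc
S100a8 (chr3:90473778-90473837, mm9, plus strand): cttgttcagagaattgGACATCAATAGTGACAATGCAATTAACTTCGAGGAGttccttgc
The Prtn3 probe covers 817 genomic bases, which is more than its own length, so it crosses at least 1 intron. The same holds for the Ngp probe (549 bases) and for the first Mpo probe (776 bases). Probes of different genes of the set shared no run longer than 9 bases. RefSeq transcripts under assembly GRCm38.p6 held the accessions of 10 of the 11 probes. In that table no other gene lay wholly between Prtn3 and Elane, or between S100a8 and S100a9. The annotation of mm9, the build of the probe coordinates, was not used here, so exon and untranslated-region positions are not given.

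Mpo encodes myeloperoxidase, which makes hypochlorous acid in the phagosome, and was the one member with more than 1 probe. Its first probe (chromosome 11, 87617102 to 87617877, mm9) had a processed signal of 28125 in Noise3h and 20588 in Baseline, a log2 ratio of 0.27. Its second probe had 3254 in Noise3h and 2039 in Baseline, a log2 ratio of 0.49. Both probes were brighter in Noise3h, and they differed from each other by 0.22, more than the whole range of the 4 primary granule genes, which was 0.18. The gene's log2 ratio, the median of both, was 0.38, or 1.30-fold.

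The other primary granule members are serine proteases. Elane, neutrophil elastase (chromosome 10, 79350902 to 79350961), had a signal of 6248 in Noise3h and 4481 in Baseline, with a log2 ratio of 0.30, the lowest of the 4. Prtn3, proteinase 3, had 1053 in Noise3h and 672 in Baseline, a log2 ratio of 0.46. Ctsg, cathepsin G (chromosome 14, 56718795 to 56718854), had 7072 in Noise3h and 4479 in Baseline, a log2 ratio of 0.48. All 3 proteases were brighter in Noise3h than in Baseline by 1.23 to 1.39-fold after scaling. Of all measured genes, 5.05% had a higher log2 ratio than Ctsg and 11.7% a higher one than Elane. Spread is narrower among bright genes, and among the 4215 genes as bright as the dimmest member those shares were 2.82% and 7.97%. That brighter set was chosen after the data were seen.

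**Figure D1:**
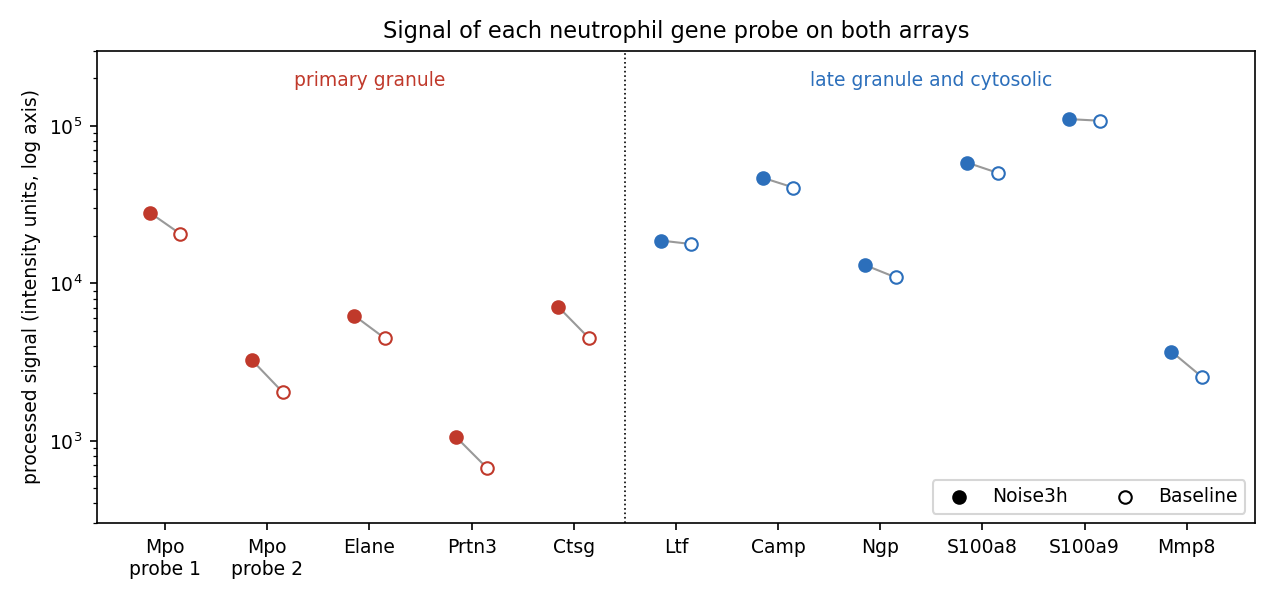
Processed signal (intensity units, log axis) of each of the 11 probes in Noise3h (filled circles, left of each pair) and Baseline (open circles, right), with primary granule genes in red and later genes in blue. Signals are before scaling between arrays. All 11 probes are brighter in Noise3h, with the steepest lines for the second Mpo probe, Ctsg and Prtn3 and nearly level ones for Ltf and S100a9.

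The secondary granule genes Ltf, Camp and Ngp lay close to 0. Ltf encodes lactoferrin, an iron-binding protein. It had a signal of 18705 in Noise3h and 17769 in Baseline, a log2 ratio of -0.11. Camp, which encodes the cathelicidin antimicrobial peptide (chromosome 9, 109749911 to 109749970), had 46828 in Noise3h and 40597 in Baseline, a log2 ratio of 0.02. Ngp, the neutrophilic granule protein (chromosome 9, 110324266 to 110324814), had 13065 in Noise3h and 10918 in Baseline, a log2 ratio of 0.08. The 3 genes were brighter in Noise3h before scaling, and scaling to the 75th percentile, 316 in Noise3h and 278 in Baseline, placed 1 below 0 and the others near it.

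S100a8 and S100a9 form the complex calprotectin, which binds calcium and zinc and is abundant in the neutrophil cytosol. S100a8 (chromosome 3) had a signal of 58455 in Noise3h and 50269 in Baseline, a log2 ratio of 0.03. S100a9 (chromosome 3, 90496573 to 90496632) had 110386 in Noise3h and 107832 in Baseline, a log2 ratio of -0.15, the lowest of the 10. Neither spot was called saturated. The negative values of Ltf and S100a9 were not stable to scaling: with spike-in scaling they were 0.11 and 0.07, and with quantile normalization S100a9 was at 0.04.

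Mmp8 encodes neutrophil collagenase and was the late gene that stood with the early ones. Its probe (chromosome 9, 7567968 to 7568026) had a signal of 3686 in Noise3h and 2540 in Baseline, a log2 ratio of 0.35. That lay 0.28 above Ngp, the next of the late genes, and above Elane alone among the primary granule genes. Of 24 pairs of a primary and a late gene, the primary gene had the higher log2 ratio in 23. Without Mmp8 the 5 other late genes lay below all 4 primary genes, with a gap of 0.22 between Elane and Ngp and a median of 0.02. Leaving Mmp8 out was chosen after its value was seen.

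**Figure D2:**
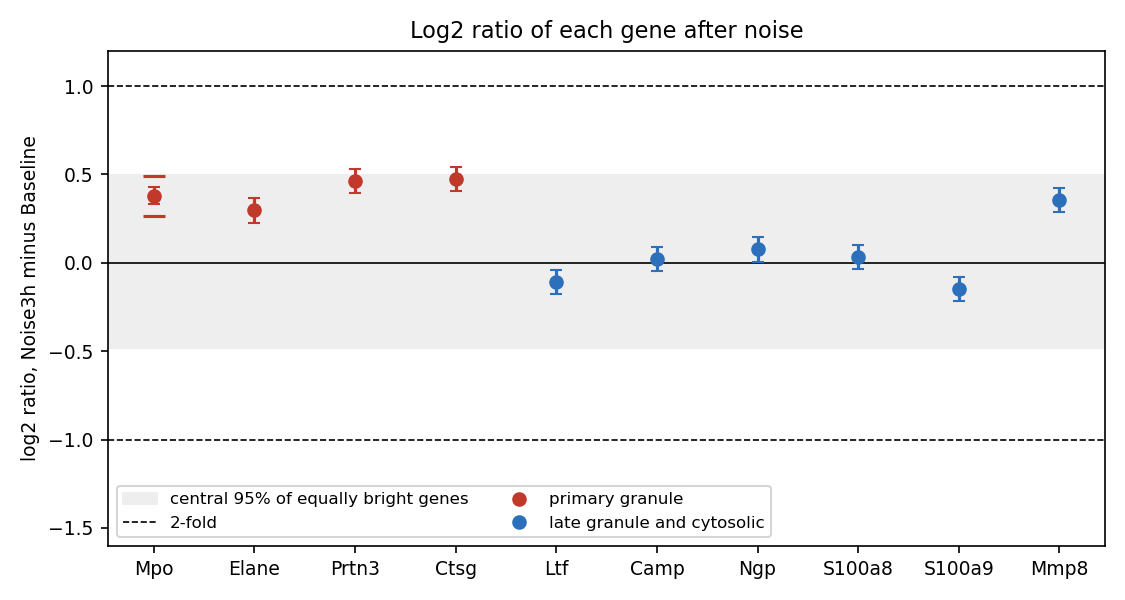
Log2 ratio (Noise3h minus Baseline) of each gene, with primary granule genes in red and later genes in blue. Bars are 1 SD from repeat spots, divided for Mpo by the square root of 2, its number of probes. Short lines are the 2 Mpo probes. The grey band is the central 95% of genes as bright as the dimmest member (-0.48 to 0.50), and dashed lines are 2-fold. All 10 genes lie within the band, and the 4 primary genes and Mmp8 lie in its upper part.

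The technical error can be set beside these differences, though not the error between animals. Repeat spots of bright probes gave an SD of 0.069 for a log2 ratio read from 1 spot. The scanner software's own error was 10% of the signal for these probes, which makes an SD of 0.20 for a log2 ratio. Different probes of a bright gene differed with an SD of 0.15, over 945 genes, so that the difference of 2 genes with 1 probe each has an SD of 0.22. The difference between the early and late medians was 0.39. The gap of 0.22 between Elane and Ngp was about the size of the SD between 2 genes. The order of Prtn3, Ctsg and both Mpo probes among themselves, and that of Camp, Ngp and S100a8, lay within the spread between probes.

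Of the 10 genes 8 had a log2 ratio above 0, against 47.5% of all measured genes and 53.5% of the genes as bright as the dimmest member. The 2 below 0 were Ltf and S100a9. The late genes other than Mmp8 were read at brighter spots than most of the early ones, so brightness moved with stage. Brightness compares spots, not the abundance of different transcripts. The 3525 genes within the level range of the primary members had a median log2 ratio of 0.01 and a central 95% of -0.52 to 0.53. The 432 genes within the level range of the late members other than Mmp8 had a median of 0.00 and a central 95% of -0.32 to 0.28. With loess on level, which removes any trend of the ratio with brightness, the difference of the medians was 0.37.

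**Figure D3:**
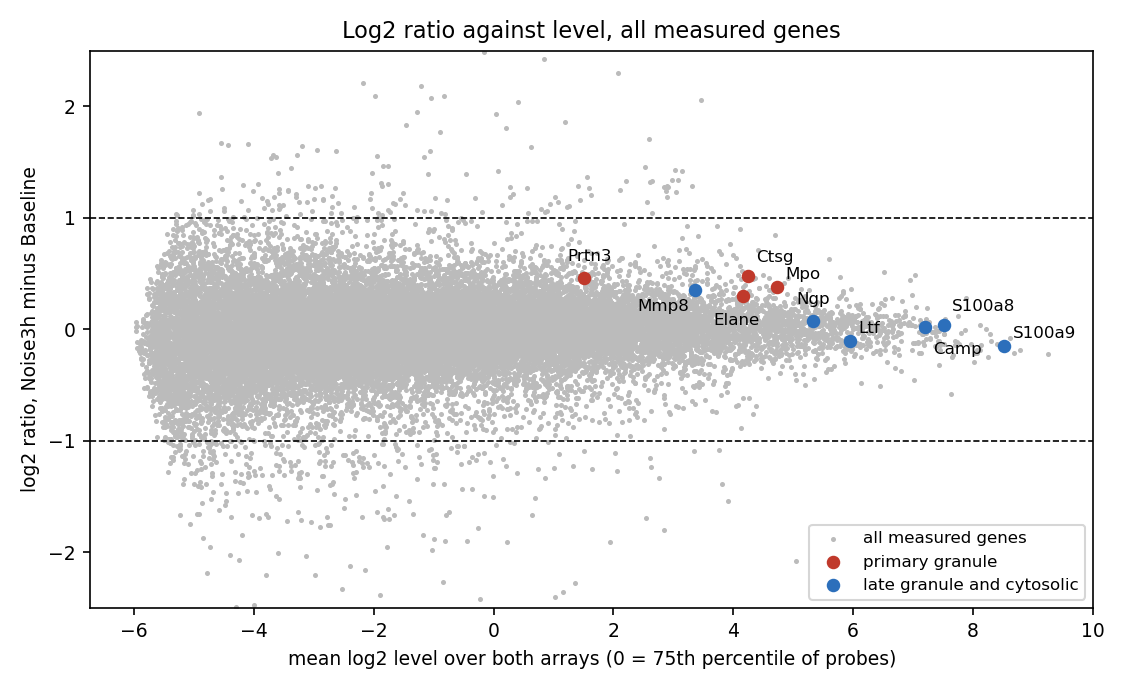
Log2 ratio (Noise3h minus Baseline) against mean log2 level over both arrays (0 is the 75th percentile of probes) for all genes measured on both arrays (grey), with the primary granule genes in red and the later genes in blue. Dashed lines are 2-fold, and 23 genes lie outside the plotted range of -2.5 to 2.5. Ltf, Camp, Ngp, S100a8 and S100a9 sit at the bright end, where the grey cloud is narrow, and Prtn3 is the dimmest of the 10.

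Other genes of the same stages gave a smaller contrast. Of 16 other promyelocyte and primary granule genes, all measured, 15 had a log2 ratio above 0 and none was 2-fold different, with a median of 0.28. The highest were Ms4a3, a membrane protein of granulocyte and monocyte precursors, at 0.62 (signals of 1673 in Noise3h and 960 in Baseline), Srgn, the granule proteoglycan serglycin, at 0.56, and Cst7, the cysteine protease inhibitor cystatin F, at 0.49. The 3 Srgn probes ran from -0.09 to 0.60, and with the normexp background Srgn was at 0.14. Fcnb, a ficolin of early neutrophils, was the single gene below 0, at -0.22, and was chosen after its value was seen; its 2 probes differed in sign, at -0.51 and 0.07.

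Of 23 other late granule genes measured, 22 had a log2 ratio above 0 and none was 2-fold different, with a median of 0.19. The highest were Olfm4, a secondary granule protein of a subset of neutrophils, at 0.73, and the chitinase-like genes Chil4 at 0.57 and Chil3 at 0.51. Olfm4 was dim, with signals of 27.0 in Noise3h and 14.4 in Baseline, and was at 0.08 with the normexp background. Chil3 was bright, with 34616 in Noise3h and 21385 in Baseline. These other late genes had a higher median than the 6 late members (0.19 against 0.03), and the other early genes a lower one than the 4 primary members (0.28 against 0.42). Both lists spanned overlapping ranges, -0.22 to 0.62 for the early one and -0.14 to 0.73 for the late one.

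Genes of the mature cell's surface and of chemotaxis were measured for 36 of 37 names, of which 28 had a log2 ratio above 0 and none was 2-fold different as scaled here. Their median was 0.20. Cxcr2, the chemokine receptor that draws neutrophils out of marrow, was at 0.82 (510 in Noise3h and 255 in Baseline), and the stefin A genes Stfa2l1 and Stfa2, inhibitors of cysteine proteases, were at 0.80 and 0.77. With spike-in scaling Cxcr2 was at 1.04 and Stfa2l1 at 1.03, both past 2-fold, and with the normexp background Stfa2l1 was at 0.53. Of the same family, Stfa1 was at 0.73, while Stfa3 went the other way at -0.47 and was named after its value was seen. Stfa3 was dim, with signals of 34.5 in Noise3h and 42.0 in Baseline. Stefin A genes are near-identical copies, so their probes may read each other's transcripts. Il1b, which encodes interleukin-1 beta, was the lowest of the list at -0.59, and was chosen after its value was seen.

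Among transcription factors and cytokines of granulopoiesis 22 of 25 were measured and 18 had a log2 ratio above 0, with a median of 0.15. At least 2-fold higher after noise were Cxcl1, a chemokine that attracts neutrophils, at 1.29 (66.6 in Noise3h and 24.0 in Baseline), and Socs3, a feedback inhibitor of cytokine receptors including that of granulocyte colony-stimulating factor, at 1.12 (890 in Noise3h and 360 in Baseline). Cxcl1 was at 0.46 with the normexp background. Cebpd, a transcription factor of the C/EBP family, followed at 0.55. The genes Csf3, Csf2 and Cxcl2, which encode growth factors and a chemokine of neutrophils, were not well above background on either array.

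Of 18 measured inhibitors of granule enzymes, 13 had a log2 ratio above 0, with a median of 0.16. Serpina3n, an inhibitor of serine proteases, was at 0.97 (33.1 in Noise3h and 14.8 in Baseline) and Stfa1 at 0.73. Serpinb1b, a relative of the elastase inhibitor Serpinb1a, was at least 2-fold lower at -1.31, from dim signals of 13.7 in Noise3h and 29.9 in Baseline, and was at -0.46 with the normexp background. With it Serpina3n was at 0.20 and Stfa1 at 0.22. In the 2 families that hold members of the set, no measured gene was 2-fold different as scaled here. Of 13 measured S100 genes, S100a8 and S100a9 included, 9 were above 0, with S100a11 highest at 0.38, followed by S100a4 at 0.34 and S100a10 at 0.31. Of 17 measured matrix metalloproteinase genes, Mmp8 included, 7 were above 0, with Mmp13, a collagenase of bone and cartilage, at 0.78, Mmp11 at -0.61 and Mmp24 at 0.39. Mmp24 was at -0.0045 with the normexp background, and Mmp13 was just past 2-fold with spike-in scaling. Mmp27 was well above background in Noise3h alone, at a signal of 7.92 against 4.02 in Baseline.

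**Figure D4:**
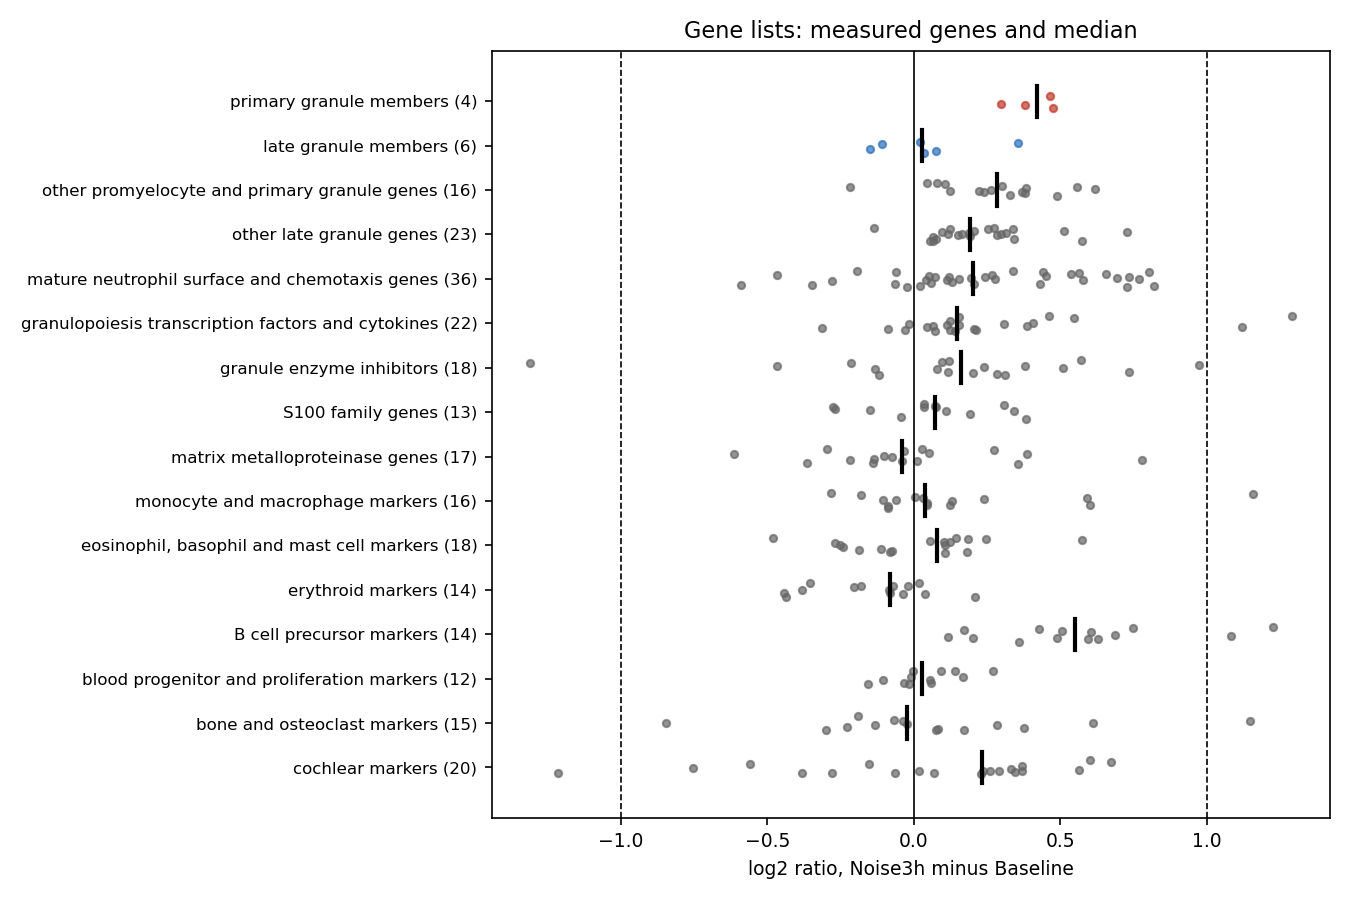
Log2 ratio (Noise3h minus Baseline) of every measured gene of each list, 1 point per gene with the number of genes in brackets, the black bar marking the list's median and dashed lines 2-fold. The 4 primary granule members have a median of 0.42 and the 6 late members one of 0.03, while the other early and late neutrophil lists lie at 0.28 and 0.19, and B cell precursor markers lie at 0.55, or at 0.36 with the normexp background.

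Of 37074 gene names on the array 26533 were measured, so a measured marker alone does not show which cells the samples held. All 20 cochlear markers, those of the labelled tissue, were well above background on both arrays. So were 14 of 14 erythroid, 14 of 14 B cell precursor and 12 of 12 progenitor and proliferation markers. The same held for 16 of 16 monocyte and macrophage and 15 of 15 bone and osteoclast markers. Tpsab1, a mast cell tryptase, was the exception among 19 eosinophil, basophil and mast cell markers. B cell precursor markers were above 0 in 14 of 14, with a median of 0.55 and a summed signal, in units of each array's 75th percentile, of 42.6 in Noise3h and 29.2 in Baseline. Among them Vpreb1, a part of the surrogate light chain, was at 1.08 and Il7r at 0.75, and Pax5 was at 1.22 from 2 probes at 2.38 and 0.07. Erythroid markers were above 0 in 3 of 14, with a median of -0.08 and a summed signal of 734 in Noise3h and 805 in Baseline. With spike-in scaling that median was 0.14. The lowest erythroid markers as scaled here were Tfrc at -0.44, Klf1 at -0.44 and Rhag at -0.38. The 2 Tfrc probes were far apart, at -0.87 and -0.01.

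Progenitor and proliferation markers had a median of 0.03, with 6 of 12 above 0, a summed signal of 59.0 in Noise3h and 60.2 in Baseline, and Cd34 highest at 0.27, then Ccnb1 at 0.17, and Mki67 lowest at -0.16. Monocyte and macrophage markers had a median of 0.04, with 10 of 16 above 0 and a summed signal of 71.2 in Noise3h and 64.5 in Baseline. Cd163, a scavenger receptor, was at 1.16, F13a1 at 0.60 and Ccr2 at 0.59, and Cd163 was at 0.58 with the normexp background. The 2 Cd163 probes were at 0.71 and 1.61, and the 3 F13a1 probes ran from 0.39 to 1.58. Eosinophil, basophil and mast cell markers had a median of 0.08, with 10 of 18 above 0 and a summed signal of 51.2 in Noise3h and 55.4 in Baseline; Ms4a2 was at 0.57, Ear1 at -0.48 and Prg3 at -0.27. This list's median had the opposite sign under 2 settings, at -0.02 with normexp and -0.015 under the stricter filter. Bone and osteoclast markers had a median of -0.02, with 7 of 15 above 0 and a summed signal of 215 in Noise3h and 207 in Baseline. That median was above 0 with the normexp background (0.04), median scaling (0.003) and spike-in scaling (0.20). Calcr, the calcitonin receptor of osteoclasts, was at 1.15, Sost at -0.84 and Dmp1 at 0.61, and Calcr was at 0.22 with the normexp background. Cochlear markers had a median of 0.23, with 13 of 20 above 0 and a summed signal of 183 in Noise3h and 159 in Baseline. Taking each gene's brightest probe gave this list a median of 0.13, and the normexp background gave 0.03. Pou3f4 was at -1.22, Slc26a5 at -0.75 and Pou4f3 at 0.67, all dim, and with the normexp background Pou3f4 was at -0.55. The part of these cell types in the values of the 10 granule genes was not tested.

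The early granule genes are known to share transcription factors, among them PU.1, MYB and members of the C/EBP family. The 250 bases before the start site of each gene were therefore searched, on both strands, for GAGGAAGT (PU.1), CAACNG (MYB) and TTGCNNAA (C/EBP). RefSeq promoters under assembly GRCm38.p6 held all 10 genes. The 4 primary granule promoters are shown first, because the log2 ratios of these genes lay closest together, and those of Ngp and Mmp8 follow as the late genes with the most C/EBP matches and with the highest log2 ratio. Capitals mark matches to the PU.1, MYB and C/EBP letters on either strand.
Mpo (chr11:87793534-87793783, plus strand): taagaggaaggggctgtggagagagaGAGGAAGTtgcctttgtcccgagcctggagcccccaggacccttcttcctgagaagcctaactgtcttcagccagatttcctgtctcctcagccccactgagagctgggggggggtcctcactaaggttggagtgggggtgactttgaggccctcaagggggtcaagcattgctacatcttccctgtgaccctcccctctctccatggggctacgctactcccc
Elane (chr10:79886062-79886311, plus strand): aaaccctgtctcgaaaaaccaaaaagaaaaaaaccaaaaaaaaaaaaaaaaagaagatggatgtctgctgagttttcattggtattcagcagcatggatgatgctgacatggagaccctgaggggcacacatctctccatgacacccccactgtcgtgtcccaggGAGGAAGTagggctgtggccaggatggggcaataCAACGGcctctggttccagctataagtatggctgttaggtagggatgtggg
Prtn3 (chr10:79879417-79879666, plus strand): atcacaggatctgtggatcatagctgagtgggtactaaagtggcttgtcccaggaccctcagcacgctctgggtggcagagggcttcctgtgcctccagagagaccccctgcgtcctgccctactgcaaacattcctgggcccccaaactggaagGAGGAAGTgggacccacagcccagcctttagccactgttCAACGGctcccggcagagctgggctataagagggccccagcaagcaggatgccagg
Ctsg (chr14:56102575-56102824, minus strand): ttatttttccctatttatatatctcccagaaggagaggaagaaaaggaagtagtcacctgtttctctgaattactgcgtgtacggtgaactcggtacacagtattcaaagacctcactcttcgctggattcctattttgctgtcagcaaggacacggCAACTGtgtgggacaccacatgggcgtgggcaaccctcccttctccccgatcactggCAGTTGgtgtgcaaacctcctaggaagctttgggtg
Ngp (chr9:110419558-110419807, plus strand): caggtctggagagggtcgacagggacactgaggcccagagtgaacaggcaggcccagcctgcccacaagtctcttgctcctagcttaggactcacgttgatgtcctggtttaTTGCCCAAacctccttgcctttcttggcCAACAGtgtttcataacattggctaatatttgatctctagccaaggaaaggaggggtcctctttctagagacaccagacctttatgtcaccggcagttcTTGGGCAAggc
Mmp8 (chr9:7558179-7558428, plus strand): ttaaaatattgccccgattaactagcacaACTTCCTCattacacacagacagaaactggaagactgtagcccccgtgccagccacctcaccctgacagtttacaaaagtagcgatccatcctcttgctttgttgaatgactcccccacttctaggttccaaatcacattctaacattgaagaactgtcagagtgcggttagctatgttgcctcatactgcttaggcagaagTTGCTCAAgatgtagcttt
The PU.1 letters occurred in 3 of 4 primary promoters (Mpo, Elane and Prtn3) and in 2 of 6 late ones (S100a8 and Mmp8), against 2.44% of 32851 promoters of the same length. The MYB letters occurred in 3 of 4 primary promoters (Elane, Prtn3 and Ctsg) and in 1 of 6 late ones (Ngp), against 29.3%. The C/EBP letters occurred in 0 of 4 primary promoters and in 4 of 6 late ones (Ltf, Ngp, S100a9 and Mmp8), against 9.56%. In the neighbours Elane and Prtn3 both motifs stood in the same order, with GAGGAAGT starting 85 and 95 bases and CAACGG 51 and 56 bases before the start site. No match of the 3 motifs overlapped another. The letters TATAAA were searched as well and are not capitalised. They occurred in 1 of 4 primary promoters (Ctsg) and in 1 of 6 late ones (S100a8), against 12.4% of all promoters searched. The Ctsg match was on the opposite strand, read as TTTATA, and started 237 bases before the start site. The S100a8 match was TATAAA itself, starting 30 bases before the start site. A match is a run of letters and no evidence of binding, and the arrays did not measure binding.

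**Figure D5:**
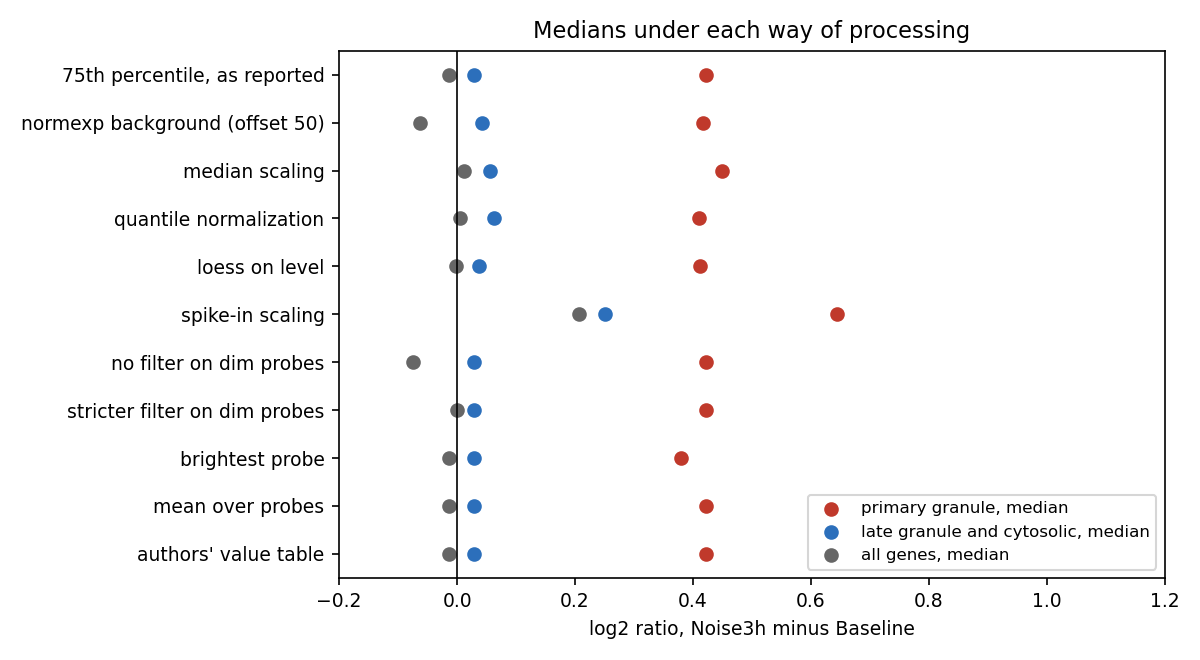
Median log2 ratio (Noise3h minus Baseline) of the primary granule genes (red), the later genes (blue) and all genes (grey) under the scaling reported and each of 10 other ways of processing. Spike-in scaling moves all medians up together, to 0.64, 0.25 and 0.21, and the distance between red and blue is 0.35 to 0.37 under the 4 settings that alter it.

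The early to late difference stayed as it was under 6 of the 10 alternatives, which could not move it, and was 0.35 to 0.37 under the other 4. Over all 10, the primary gene was the higher one in 22 or 23 of the 24 pairs. The level that counts as 0 was less certain. Spike-in scaling, which rests on 8 spike-in probes with log2 differences of -0.20 to 0.40, moved the median of all genes to 0.21 and put all 10 genes above 0.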

How the data were processed

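Cochlear RNA of 1 Noise3h and 1 Baseline sample was labelled with Cy3 and hybridised to 1 Agilent array each. Spot intensity values were taken from the scanner files the authors deposited, made with Agilent Feature Extraction 11.5.1.1 per the file headers, which subtract a background and detrend each array. Flags for spots well above background, saturated or outlying come from the same deposited files. Both arrays shared 1 slide and 1 scan, per the file headers. A value table deposited by the authors is in log2 units. Each column equalled log2 of the processed signal minus 8.30 (Noise3h) or 8.12 (Baseline), with medians of -2.80 and -2.78. Thus no gene was centred, and its scale and direction are those used here.

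Of 59305 non-control spots, 60 in Noise3h and 58 in Baseline carried outlier flags on the spot and were left out, and none was saturated. Log2 signals of repeat spots were averaged per probe and set relative to the 75th percentile of their array. Measured probes were those well above background on both arrays (75.3% of probes were in Noise3h and 75.2% in Baseline), and a gene took the median log2 ratio of its measured probes. The normexp background, quantile and loess steps used limma 3.58.1. The gene step was tested on simulated data. The number of arrays limits the precision, and no p-value was computed.

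The 10 genes and the 14 other lists, with the 10 alternatives, were chosen with earlier results of these data known. All 10 genes were named, as were up to 3 genes of each other list with the largest absolute log2 ratio and any list gene past 2-fold. No gene of like pattern was sought, since with 2 arrays a pattern is 1 ratio.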

Additional observations from a re-analysis of the deposited data

How the results depend on the processing

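The count of members past 2-fold was 0 in each direction under all 10 alternatives. The median of the primary granule genes ran from 0.38 to 0.64 and that of the late genes from 0.03 to 0.25, the highest values coming from spike-in scaling. The median over all genes ran from -0.08 to 0.21. The counts over all genes moved more. As reported, 162 genes were at least 2-fold higher and 332 at least 2-fold lower. With the normexp background these were 56 and 74, with spike-in scaling 351 and 186, without any filter on dim probes 672 and 1296, and with the stricter filter 103 and 154. The share of higher among 2-fold calls therefore depends on the scaling. No paired analysis was possible because there was a single array per group. This also left no replicate to leave out. The 10 granule genes were well above background on both arrays, so the filters on dim probes do not touch them, while dim genes of the other lists depend on the background setting. Spike-in scaling also put Cxcr2, Stfa2l1, Mmp13 and Serpina3n past 2-fold, and keeping every probe did so for S100g, whose probes passed the background filter on neither array and which was chosen after its value was seen.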
